A study of Homo sapiens with 19 samples.

Results

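The G2 and mitosis genes are 50 human genes that a cell uses between the end of DNA replication and the separation of its daughters. They were taken by name from a fixed list and found in the count tables by their Ensembl gene identifiers, which gave 50 of the 62700 genes listed. They lie on 18 chromosomes. RNA came from A549, an established line of human lung adenocarcinoma cells, collected around a sampling step called nanostraw electroporation (NEE), where living cells rest on hollow nanotubes and brief electric pulses open them so that RNA can be drawn out. All libraries were made by Smart-Seq2, which copies full-length polyadenylated RNA and amplifies it by PCR.

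The groups were as follows. NEE-sampled RNA, labelled as drawn from A549 monolayers with no time given, had 3 technical replicates. Spheroids, which are A549 cells grown as balls, gave lysates from before NEE, from right after, from 2 h and from 24 h later. Monolayers, which are A549 cells grown flat, gave lysates at the same 4 times. Each of these 8 groups of lysates had 2 replicates, so there were 8 spheroid and 8 monolayer libraries. The labels do not say whether the replicates came from separate cultures, so p-values measure the spread between these libraries, which may be technical. For NEE-sampled RNA that spread is technical by its label. NEE-sampled RNA was purified with another kit than the lysates, so the sampling and the kit cannot be told apart, and no group was handled without NEE at the later times.

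Entry into mitosis is driven by cyclin-dependent kinase 1 bound to cyclins A and B, helped by Polo-like and Aurora kinases. The spindle assembly checkpoint holds the cell at metaphase until kinetochores, the protein plates on the centromeres, are attached to microtubules, and the anaphase-promoting complex then destroys cyclin B and securin. Kinesins move and focus microtubules throughout, and cytokinesis proteins divide the cell. Many of these genes are transcribed mainly in G2, when B-MYB and FOXM1 act on them through the MuvB complex, and are held down outside it by the DREAM complex. MuvB meets DNA at a short element named CHR (cell cycle genes homology region), and the factor NF-Y binds CCAAT boxes upstream of it. A549 cells divide continuously in monolayer culture, so these genes are commonly read as a measure of how many cells of a culture are cycling.

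Promoter sequences show exact matches to short forms of these elements in 3 members and no exact match in the fourth. Each window runs from 250 bases before to 50 bases after the RefSeq start on GRCh38.p14, on the + strand, from 5′ to 3′. Capitals mark CHR (TTTGAA or TTCGAA) and CCAAT, each searched on both strands; the motifs share no letters here. PLK1 encodes Polo-like kinase 1, and its window is chr16:23678639-23678938. KIF4A encodes a chromosome-bound kinesin, and its window is chrX:70289854-70290153. CDC20 encodes the activator of the anaphase-promoting complex, and its window is chr1:43358731-43359030. KIF2C encodes a kinesin that shortens microtubules at centromeres, and its window is chr1:44739587-44739886.
PLK1: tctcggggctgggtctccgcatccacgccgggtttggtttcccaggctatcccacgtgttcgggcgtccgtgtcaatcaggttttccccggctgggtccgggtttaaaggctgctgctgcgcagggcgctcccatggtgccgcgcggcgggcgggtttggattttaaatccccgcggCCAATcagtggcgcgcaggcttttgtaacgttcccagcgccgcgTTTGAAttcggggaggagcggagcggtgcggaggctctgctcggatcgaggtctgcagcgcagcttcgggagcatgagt
KIF4A: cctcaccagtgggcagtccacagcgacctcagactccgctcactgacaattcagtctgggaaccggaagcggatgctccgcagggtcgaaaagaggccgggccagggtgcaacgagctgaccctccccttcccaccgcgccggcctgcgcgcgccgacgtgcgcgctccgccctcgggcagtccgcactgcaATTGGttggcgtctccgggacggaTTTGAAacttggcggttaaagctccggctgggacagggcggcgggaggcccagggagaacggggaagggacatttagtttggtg
CDC20: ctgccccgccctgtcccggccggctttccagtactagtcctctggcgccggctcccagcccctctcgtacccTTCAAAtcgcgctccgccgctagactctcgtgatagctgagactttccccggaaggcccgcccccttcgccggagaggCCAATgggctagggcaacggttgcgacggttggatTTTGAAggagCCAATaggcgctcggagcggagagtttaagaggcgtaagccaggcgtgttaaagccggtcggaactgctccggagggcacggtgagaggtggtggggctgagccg
KIF2C: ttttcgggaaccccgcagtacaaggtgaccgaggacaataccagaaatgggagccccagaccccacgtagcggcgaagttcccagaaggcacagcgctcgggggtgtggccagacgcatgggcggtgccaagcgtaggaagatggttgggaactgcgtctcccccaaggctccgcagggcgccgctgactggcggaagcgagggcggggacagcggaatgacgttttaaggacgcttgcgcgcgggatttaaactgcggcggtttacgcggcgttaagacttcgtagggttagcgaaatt
Counted from the start, CHR stood at −29 and CCAAT at −73 in PLK1, and at −34 and −58 in KIF4A. CDC20 held CHR at −178 and −65 and CCAAT at −100 and −55. KIF2C held neither motif in this window. RefSeq windows were matched by symbol for 43 of the 50 members, which gave 53 windows. CHR within 50 bases of the start was found in 30 of these, or 56.6%, against 5.01% of all 35097 windows in the table. CCAAT anywhere in the window was found in 77.4% of the members' windows, against 34.6% of all windows. Both together were found in 47.2% of the members' windows, against 2.04%. The match of these letters is a description of the DNA and says nothing of which factors were bound in these cells.

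The 3 NEE-sampled libraries held 13626934 to 18512985 counts over genes and the 16 lysate libraries 16031034 to 24571083, so 3 counts corresponded to 0.122 to 0.220 CPM, the library's counts scaled to a common total. PCR reads without molecular identifiers are not independent molecules, and such floors cover counting error only. Levels below are CPM scaled by TMM (trimmed mean of M-values), and a gene was called at an edgeR quasi-likelihood p under 0.05 after Benjamini-Hochberg adjustment over all genes of the fit. Of the 50 members, 49 passed the filter on low counts in both fits. NUSAP1, which encodes a spindle microtubule protein, did not, with at most 0.371 CPM in any library. NUSAP1, PRC1, CENPA, BUB1B and KIF15 overlap another gene on the same strand in GENCODE 29, so these 5 levels are uncertain. The strand setting of the counting is not given in the sources used here, so levels of members that overlap a gene on the opposite strand, such as PLK1, CCNA2 and KIF4A, are uncertain too. Replicate 1 of the monolayers before NEE stood apart. The 15 leukocyte markers summed to 772 CPM there, against 28.8 to 41.4 CPM in the other 7 monolayer libraries, 23.5 to 70.0 CPM in spheroids and 4.36 to 7.93 CPM in NEE-sampled RNA. Its 10 epithelial and A549 markers summed to 14213 CPM, against at least 28313 CPM in the other monolayer libraries. Among spheroids, the leukocyte sum of 70.0 CPM was in replicate 2 right after NEE, and the next highest was 30.1 CPM.

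Spheroids held less G2 and mitosis RNA than monolayers. The 50 members together made up 0.342% to 0.527% of the counts of the spheroid libraries, with a median of 0.436%, and 0.668% to 1.05% of the monolayer libraries, with a median of 0.848%. In the contrast of spheroids with monolayers over the 4 times, 43 of the 49 members tested fell and none rose. Of all 17822 genes tested, 9.84% fell and 19.9% were called in either direction. The members' median log2 fold change was −0.97, against −0.02 over all genes, and 48 of 49 values were negative. In 26 members all 8 spheroid libraries lay below all 8 monolayer libraries, as in 3.37% of all genes, and in 0 members they lay above, as in 2.97% of all genes. In bulk RNA, fewer cells in G2 and mitosis and less RNA in each such cell cannot be told apart. Without replicate 1 of the monolayers before NEE, 42 members fell and the median was −0.97.

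**Figure D1:**
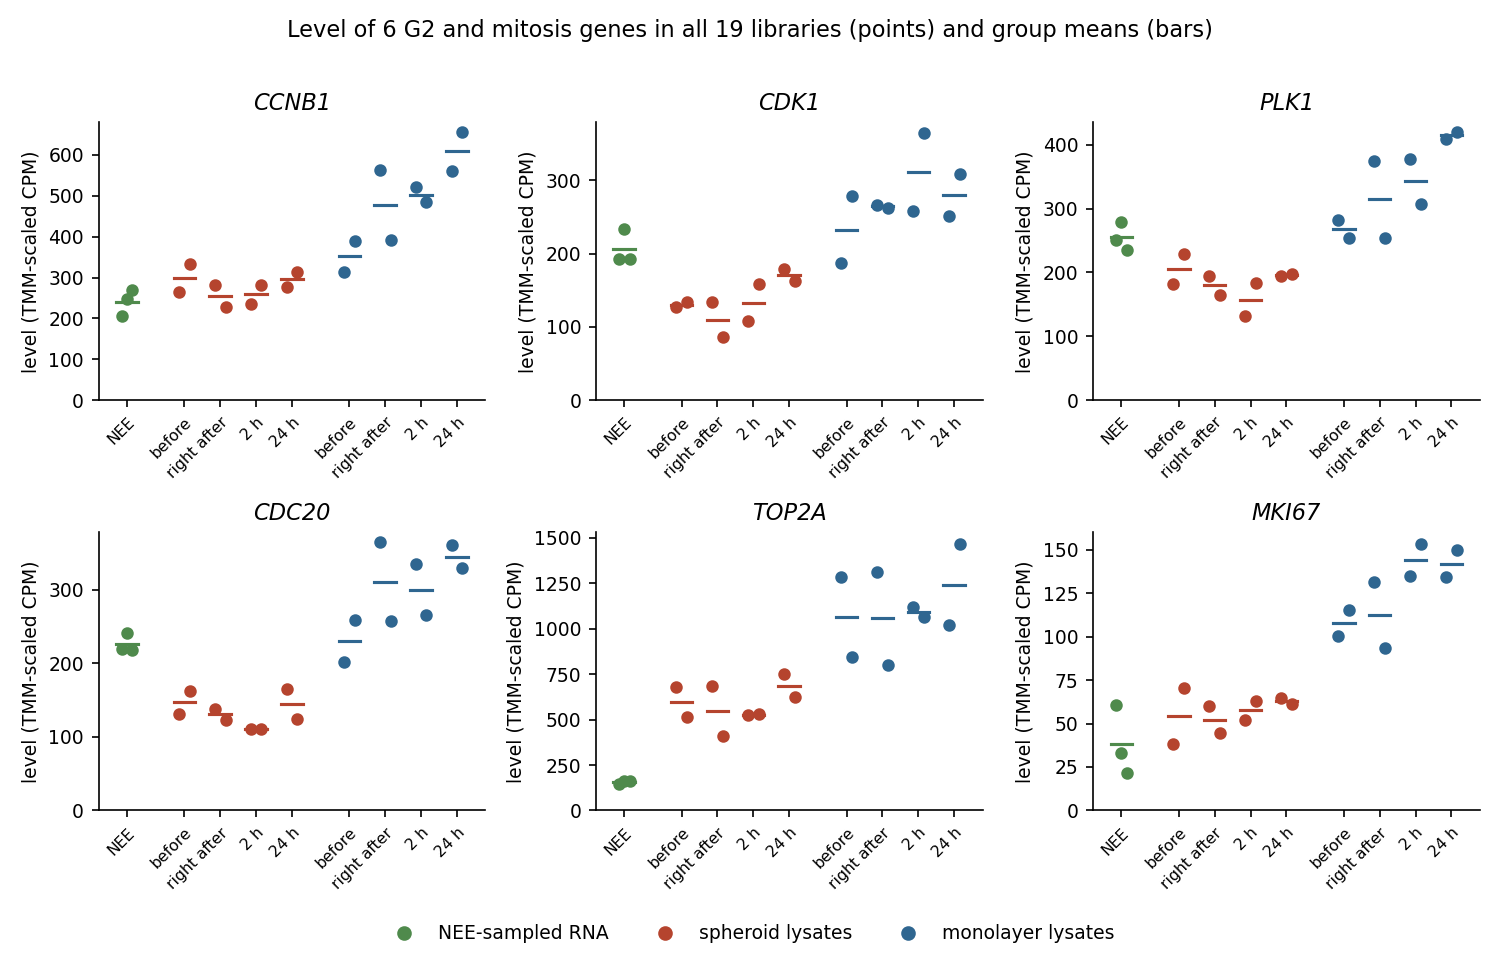
Level of 6 members (TMM-scaled CPM, y axis from 0) in each of the 19 libraries, with NEE-sampled RNA in green, spheroids in red and monolayers in blue; points are libraries and bars are group means. The 8 spheroid libraries lie below the 8 monolayer libraries for CDK1, PLK1, CDC20, TOP2A and MKI67, and TOP2A in NEE-sampled RNA lies at 146 to 162 CPM.

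Among the cyclins, kinases and phosphatases that drive entry into mitosis, 7 of 10 fell in spheroids, with a median log2 fold change of −0.81. CCNA2, which encodes cyclin A2, had 51.9, 76.8 and 102 CPM as the lowest, median and highest of the spheroid libraries, against 123, 173 and 193 CPM in monolayers. The groups did not overlap, and the level was 2.06-fold lower in spheroids (log2 fold change −1.04, SE 0.14, edgeR adjusted p = 0.000221). CDK1, the kinase itself, had 85.7, 134 and 179 CPM in spheroids and 187, 264 and 365 CPM in monolayers, again without overlap (log2 fold change −1.0, SE 0.14, edgeR adjusted p = 0.000356). PLK1, whose CHR and CCAAT are shown above, had 132, 188 and 228 CPM in spheroids, against 253, 341 and 420 CPM in monolayers (log2 fold change −0.84, edgeR adjusted p = 0.000345). AURKA, which encodes the centrosome kinase Aurora A, had 104, 147 and 163 CPM in spheroids and 212, 293 and 353 CPM in monolayers (log2 fold change −1.07, edgeR adjusted p = 8.38e-05). Every spheroid library lay below every monolayer library for both kinases.

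The cyclins B were less uniform. CCNB1, which encodes cyclin B1, had 229, 280 and 333 CPM in spheroids and 315, 502 and 656 CPM in monolayers, so the groups overlapped although the gene fell (log2 fold change −0.78, edgeR adjusted p = 0.000458). CCNB2, which encodes cyclin B2, had 125, 152 and 194 CPM in spheroids, against 115, 195 and 262 CPM in monolayers, and did not pass the test (log2 fold change −0.24, SE 0.13, edgeR adjusted p = 0.203). The CDC25 phosphatases remove the inhibitory phosphates from CDK1. CDC25B had 154, 197 and 247 CPM in spheroids and 146, 188 and 237 CPM in monolayers, and its value of 0.05 (SE 0.12) was the only positive log2 fold change among the 49 members. Its sign turned without any of 4 libraries, which are listed with the alternatives. CDC25C also did not pass the test (log2 fold change −0.35, edgeR adjusted p = 0.183). NEK2, a centrosome kinase, and AURKB, the kinase of the chromosomal passenger complex, fell by 0.50 and 1.11 on the log2 scale.

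All 8 members of the checkpoint and anaphase group fell in spheroids, with a median log2 fold change of −1.03. CDC20, the activator that the checkpoint restrains, had 110, 128 and 166 CPM in spheroids and 201, 297 and 365 CPM in monolayers (log2 fold change −1.14, SE 0.12, edgeR adjusted p = 4.5e-05). That was the smallest p-value among the members. MAD2L1, which encodes the checkpoint protein that binds CDC20, had 46.2, 63.5 and 76.0 CPM in spheroids, against 78.1, 119 and 145 CPM in monolayers (log2 fold change −0.97, edgeR adjusted p = 0.000165). TTK, the kinase that starts checkpoint signalling at the kinetochore, had the most negative value of all members, with 21.8, 34.4 and 45.3 CPM in spheroids and 66.4, 89.4 and 129 CPM in monolayers (log2 fold change −1.38, SE 0.19, edgeR adjusted p = 0.000274). The groups overlapped in none of these genes. PTTG1, which encodes securin, the guard of separase, had the smallest change of the group, with 21.3, 29.4 and 35.0 CPM in spheroids and 28.6, 39.0 and 75.1 CPM in monolayers. Its ranges overlapped, and its call (log2 fold change −0.49, edgeR adjusted p = 0.0445) was lost in 12 of the 16 fits that left out a library and under 2 other alternatives. BUB1, BUB1B, SGO1 and UBE2C, which encode the checkpoint proteins Bub1 and BubR1, the protector of centromeric cohesin and an enzyme of cyclin destruction, fell by 0.97 to 1.07 on the log2 scale.

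Of the 8 kinesins, 7 fell, with a median of −1.01. KIF18B, a kinesin that shortens astral microtubules, had 15.4, 30.6 and 40.3 CPM in spheroids, against 52.5, 82.0 and 90.2 CPM in monolayers (log2 fold change −1.34, SE 0.16, edgeR adjusted p = 8.97e-05). KIF23, which bundles microtubules at the midzone of the dividing cell, had 76.5, 129 and 158 CPM in spheroids and 183, 266 and 355 CPM in monolayers (log2 fold change −1.11, edgeR adjusted p = 9.07e-05). Neither showed overlap between the cultures. KIF20A, another midzone kinesin, had 86.9, 129 and 153 CPM in spheroids and 95.6, 146 and 252 CPM in monolayers, and did not pass the test (log2 fold change −0.30, SE 0.16, edgeR adjusted p = 0.217). KIF2C, whose promoter window held neither motif, fell by 0.76 on the log2 scale, and KIF4A, whose window held both, by 0.99. Among the windows of the 36 matched members that fell, 57.5% held CHR near the start and 80% held CCAAT. These are 40 of the members' 53 windows, so shares close to those of all members' windows were largely bound to follow. Whether the motifs go with the fall was not tested.

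Of the 9 kinetochore and centromere members, 8 fell, with a median of −0.91. HJURP, the chaperone that loads the centromeric histone, had 96.8, 158 and 196 CPM in spheroids and 319, 333 and 402 CPM in monolayers (log2 fold change −1.21, SE 0.13, edgeR adjusted p = 5.11e-05). NUF2, a subunit of the NDC80 complex that holds microtubules, had 16.1, 21.6 and 30.2 CPM in spheroids, against 32.3, 42.0 and 54.1 CPM in monolayers (log2 fold change −0.91, edgeR adjusted p = 0.000481). Neither gene overlapped between the cultures. CENPA, the centromeric histone itself, was low, with 1.80, 3.34 and 5.35 CPM in spheroids and 1.33, 4.51 and 6.95 CPM in monolayers, and did not pass the test (log2 fold change −0.25, SE 0.32, edgeR adjusted p = 0.656). KNL1 and CENPE, a kinetochore scaffold and a kinetochore motor, fell by 1.37 and 1.26 on the log2 scale.

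Of the 6 cytokinesis members, 5 fell, with a median of −0.99. ANLN, which encodes the scaffold anillin of the contractile ring, had 122, 153 and 221 CPM in spheroids and 231, 338 and 443 CPM in monolayers (log2 fold change −1.11, edgeR adjusted p = 0.000327). BIRC5, which encodes survivin of the chromosomal passenger complex, had 158, 185 and 219 CPM in spheroids, against 259, 342 and 503 CPM in monolayers (log2 fold change −0.93, edgeR adjusted p = 0.00018). Both were without overlap. INCENP, the scaffold of the same complex, was low, with 0.225, 2.15 and 3.67 CPM in spheroids and 2.01, 5.36 and 6.48 CPM in monolayers, and its call (log2 fold change −1.27, SE 0.35, edgeR adjusted p = 0.022) was lost without replicate 2 of the spheroids right after NEE (edgeR adjusted p = 0.0564). PRC1, a midzone microtubule bundler, stayed at 0.561 to 1.48 CPM in spheroids and 0.785 to 2.49 CPM in monolayers and missed the threshold (edgeR adjusted p = 0.0864).

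All 8 tested members of the remaining spindle and chromosome genes fell, with a median of −0.90. MKI67, which encodes the proliferation marker Ki-67, had 38.2, 60.7 and 70.6 CPM in spheroids and 93.1, 133 and 153 CPM in monolayers (log2 fold change −1.14, edgeR adjusted p = 0.000179). TPX2, which brings Aurora A to the spindle, had 157, 212 and 267 CPM in spheroids, against 337, 449 and 536 CPM in monolayers (log2 fold change −1.07, edgeR adjusted p = 0.000153). TOP2A, which encodes topoisomerase II alpha, had 411, 575 and 751 CPM in spheroids and 803, 1090 and 1464 CPM in monolayers (log2 fold change −0.92, edgeR adjusted p = 0.00113). These 3 genes showed no overlap. CDCA3, a trigger of WEE1 destruction, had the smallest change, with 28.9, 47.2 and 66.4 CPM in spheroids and 41.2, 71.8 and 107 CPM in monolayers (log2 fold change −0.53, edgeR adjusted p = 0.0388), and its call was lost in 12 of the 16 fits that left out a library. FOXM1, the transcription factor of the list, fell by 0.88.

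**Figure D2:**
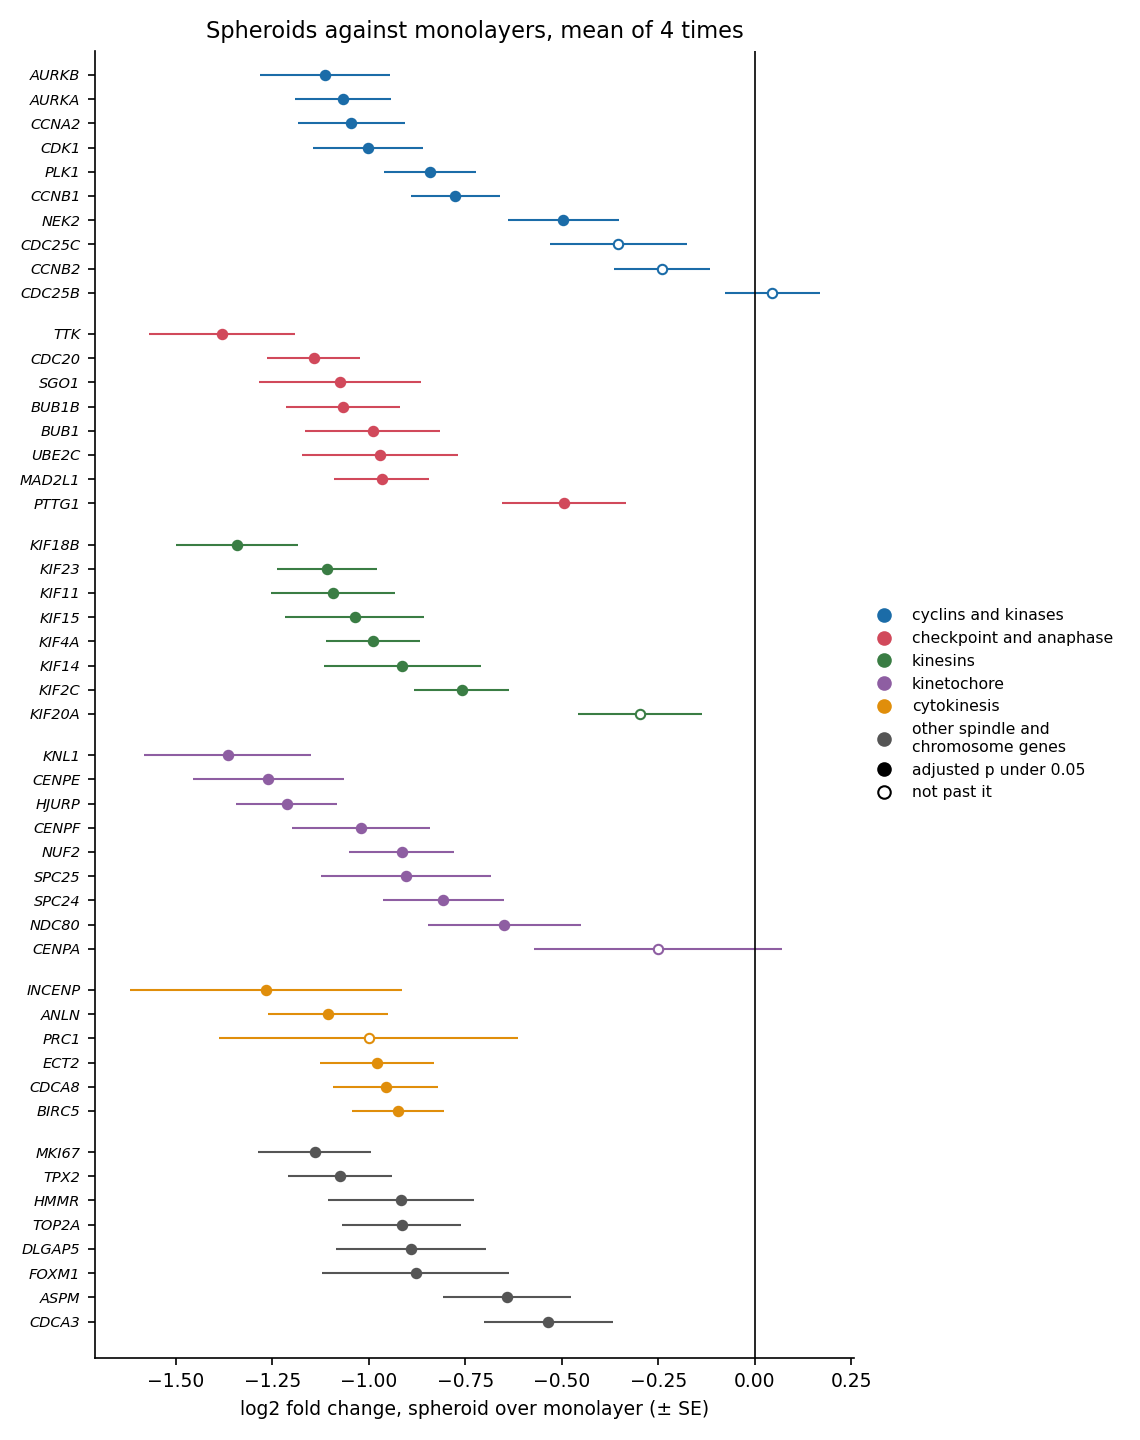
Log2 fold change of spheroids over monolayers (x axis, mean over 4 times, bars ± SE) for each of the 49 members tested, coloured by role; filled points have an adjusted p under 0.05. All but CDC25B lie left of 0, and 43 are filled.

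Before NEE alone the same contrast had 2 libraries on each side and no member was called, although 44 of 49 values were negative with a median of −0.72 and 25 members were lower at an unadjusted p under 0.05, as were 8.86% of all genes. After adjustment, 1.30% of all 17822 genes were called. DESeq2 called 12 members lower, where it called 3.84% of all genes lower, and the fit with a replicate block called 3. When replicate 2 of these monolayers was left out 10 members were called, all against replicate 1 alone, the library with leukocyte markers. When replicate 1 was left out none was called. In both fits the monolayers before NEE are 1 library, which is assumed to vary like the other groups. HJURP had 143 and 163 CPM in spheroids before NEE, against 334 and 320 CPM in monolayers before NEE (log2 fold change −1.08, edgeR adjusted p = 0.0556). CCNB1 had 266 and 333 CPM in spheroids before NEE and 315 and 388 CPM in monolayers before NEE (log2 fold change −0.22, edgeR adjusted p = 0.685). The cyclin and kinase group had a median of −0.29 before NEE, and the other 5 groups had medians of −0.84 to −0.69. Median log2 deviations from each gene's mean over the lysates differed between these monolayer replicates. Replicate 1 had 0.04 for cyclins and kinases, against 0.62 for kinesins and 0.67 for cytokinesis. Replicate 2 had 0.11, against 0.05 and 0.25. The checkpoint and anaphase group, like the cyclins and kinases, was lower in replicate 1, at 0.003 against 0.33 in replicate 2. Whether the groups differed was not tested.

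No member was called between any later time and before NEE in either culture. In monolayers, 31 of 49 values were positive right after NEE, 41 at 2 h and 46 at 24 h, with medians of 0.14, 0.23 and 0.47. In spheroids, 11 were positive right after NEE, 10 at 2 h and 31 at 24 h, with medians of −0.13, −0.21 and 0.14. The background of calls was as low, at 0% of all genes right after NEE and at 24 h in both cultures, 0.00561% at 2 h in monolayers and 0.0112% at 2 h in spheroids. At an unadjusted p under 0.05 in edgeR, monolayers had 0 higher members right after NEE, 4 at 2 h and 9 at 24 h, against 0.645%, 1.25% and 1.68% of all genes. Spheroids had 1 lower right after NEE, 1 lower at 2 h and 1 higher at 24 h, against 0.797%, 1.37% and 1.36% of all genes, so these counts of 1 in 49 were near the background. DESeq2 called no member in these 6 comparisons. Single libraries moved the medians by over 1.5 times. In spheroids the median at 2 h was −0.10 without replicate 1 of 2 h and −0.35 without its replicate 2, and at 24 h it was 0.01 without replicate 1 of 24 h and 0.25 without its replicate 2. In monolayers the median at 2 h was 0.41 without replicate 1 from before NEE. The comparisons within a culture share their libraries from before NEE, so they are not independent of each other.

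**Figure D3:**
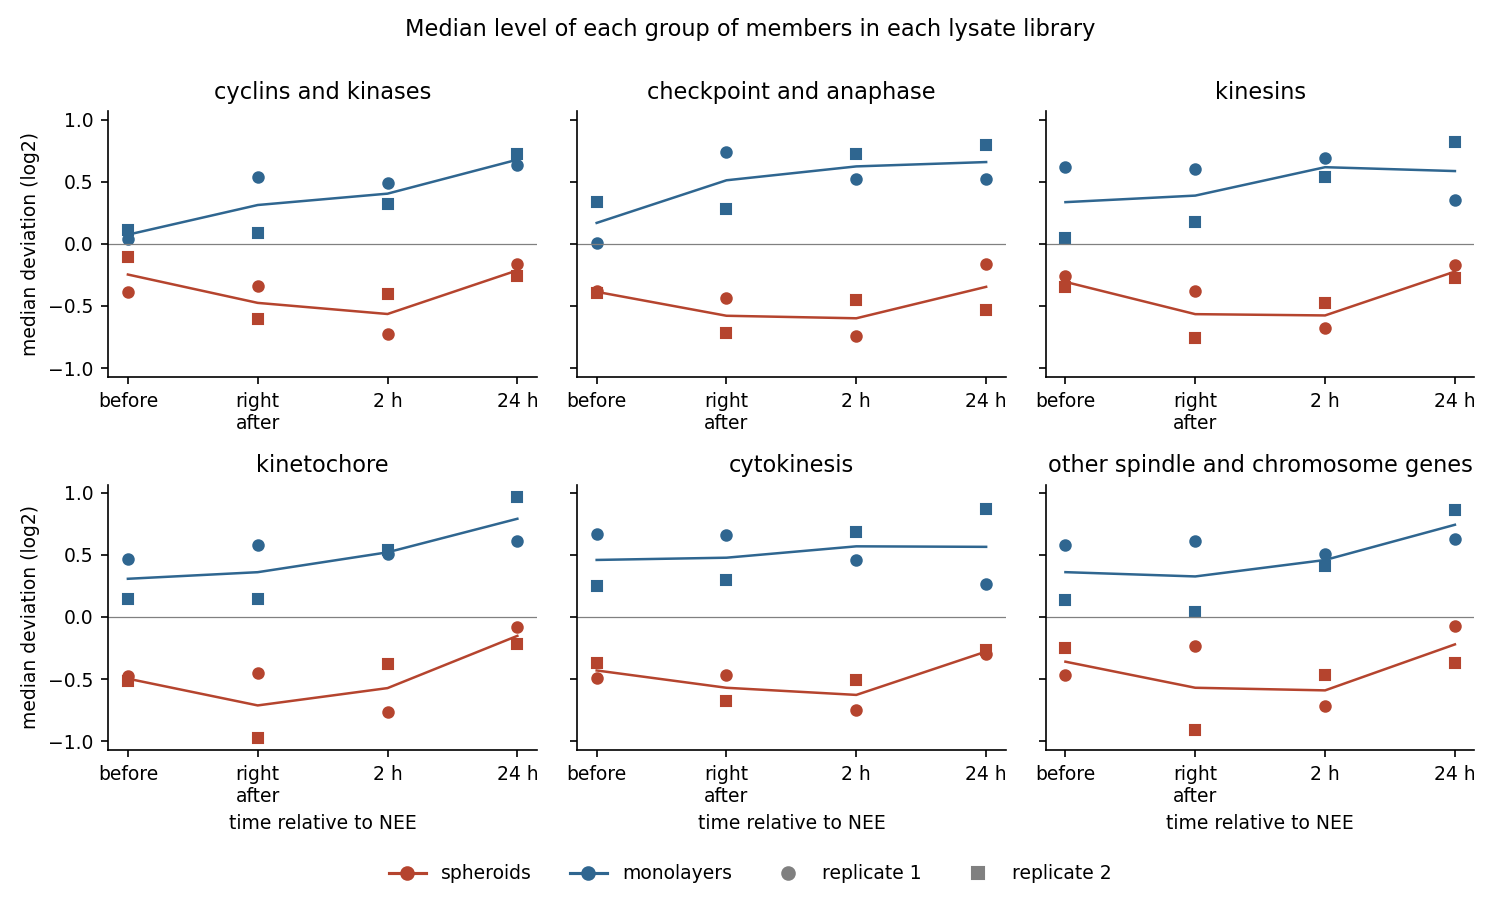
Median deviation of each role group (y axis, log2 of CPM + 1 in a library minus the gene's mean over the 16 lysate libraries) at the 4 times, with spheroids in red and monolayers in blue; circles and squares are replicates 1 and 2 and lines join their means. In the cyclin and kinase group the monolayers lie at 0.04 and 0.11 before NEE and at 0.63 and 0.72 at 24 h.

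The 24 h monolayers lay highest among the monolayer groups for many members without passing the test. In 25 of the 49 members both libraries at 24 h were above both libraries before NEE, as in 12.8% of all genes. In 9 members they were above all 6 other monolayer libraries, as in 3.25% of all genes. At an unadjusted p under 0.05, 9 members were higher at 24 h than before NEE (edgeR adjusted p = 1 for each), against 1.68% of all genes. These were CCNA2, CCNB1, CCNB2, PLK1, CDC20, PTTG1, KIF20A, BIRC5 and CDCA3. CCNB2 had 262 and 242 CPM in monolayers at 24 h, against 115 and 148 CPM before NEE (log2 fold change 0.96, SE 0.25). CCNB1 had 560 and 656 CPM at 24 h and 315 and 388 CPM before NEE (log2 fold change 0.81, SE 0.23). PLK1 had 409 and 420 CPM at 24 h, against 281 and 253 CPM before NEE (log2 fold change 0.65, SE 0.24). In all 3 the 24 h libraries exceeded both libraries from before NEE, and in CCNB2 and PLK1 they exceeded every other monolayer library.

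Other roles showed values of the same sign at 24 h in monolayers. CDC20 had 361 and 329 CPM at 24 h, against 201 and 259 CPM before NEE (log2 fold change 0.60, SE 0.24). PTTG1 had 50.1 and 75.1 CPM at 24 h and 31.7 and 41.5 CPM before NEE (log2 fold change 0.80, SE 0.32). KIF20A had 169 and 252 CPM at 24 h, against 140 and 95.8 CPM before NEE (log2 fold change 0.86, SE 0.32). The libraries of the groups did not overlap in these genes. SPC24, a subunit of the NDC80 complex, had 56.5 and 72.0 CPM at 24 h, against 30.3 and 53.6 CPM before NEE (log2 fold change 0.64, SE 0.31). Leaving out 1 library moved the log2 fold change of SPC24 between 0.28 and 1.11, that of PTTG1 between 0.47 and 1.06 and that of KIF20A between 0.54 and 1.16. INCENP had 6.21 and 6.48 CPM at 24 h and 2.01 and 2.55 CPM before NEE, the most positive value of the members (log2 fold change 1.5, SE 0.70). CDCA3 had 88.6 and 107 CPM at 24 h, against 41.2 and 61.6 CPM before NEE (log2 fold change 0.95, SE 0.34).

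Other members overlapped between these times. TOP2A had 1022 and 1464 CPM at 24 h in monolayers, against 1284 and 843 CPM before NEE (log2 fold change 0.25, SE 0.31). TTK had 92.6 and 84.7 CPM at 24 h and 129 and 66.4 CPM before NEE (log2 fold change −0.12, SE 0.37). KIF15, which helps hold the spindle poles apart, had 35.5 and 47.9 CPM at 24 h, against 55.6 and 39.6 CPM before NEE (log2 fold change −0.17, SE 0.36). In these 3 genes the higher library before NEE was replicate 1, and the groups overlapped. The log2 levels of that library, relative to the mean of the lysates, ran with transcript length. The Spearman rho was 0.62 across the 46 members whose mean over the lysates exceeded 5 CPM and 0.41 across all genes with a known length. Replicate 2 from before NEE had −0.22 and −0.22. Across these members, replicates 1 and 2 of the monolayers had 0.38 and −0.26 right after NEE. They had 0.46 and 0.05 at 2 h and −0.37 and 0.12 at 24 h. The log2 fold change of 24 h over before NEE had a rho of −0.49 with transcript length across the 49 members tested. Across 13774 genes it was −0.16. Genes are not independent replicates, so these values describe the libraries. With the trend on transcript length removed from each library, an alternative chosen after the data were seen, the median at 24 h was 0.50 and 46 values were positive. Without replicate 1 from before NEE, 49 of 49 values were positive with a median of 0.60. Without replicate 2 of the monolayers at 24 h, 39 were positive with a median of 0.31, and without replicate 2 from before NEE, 37 with a median of 0.38.

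**Figure D4:**
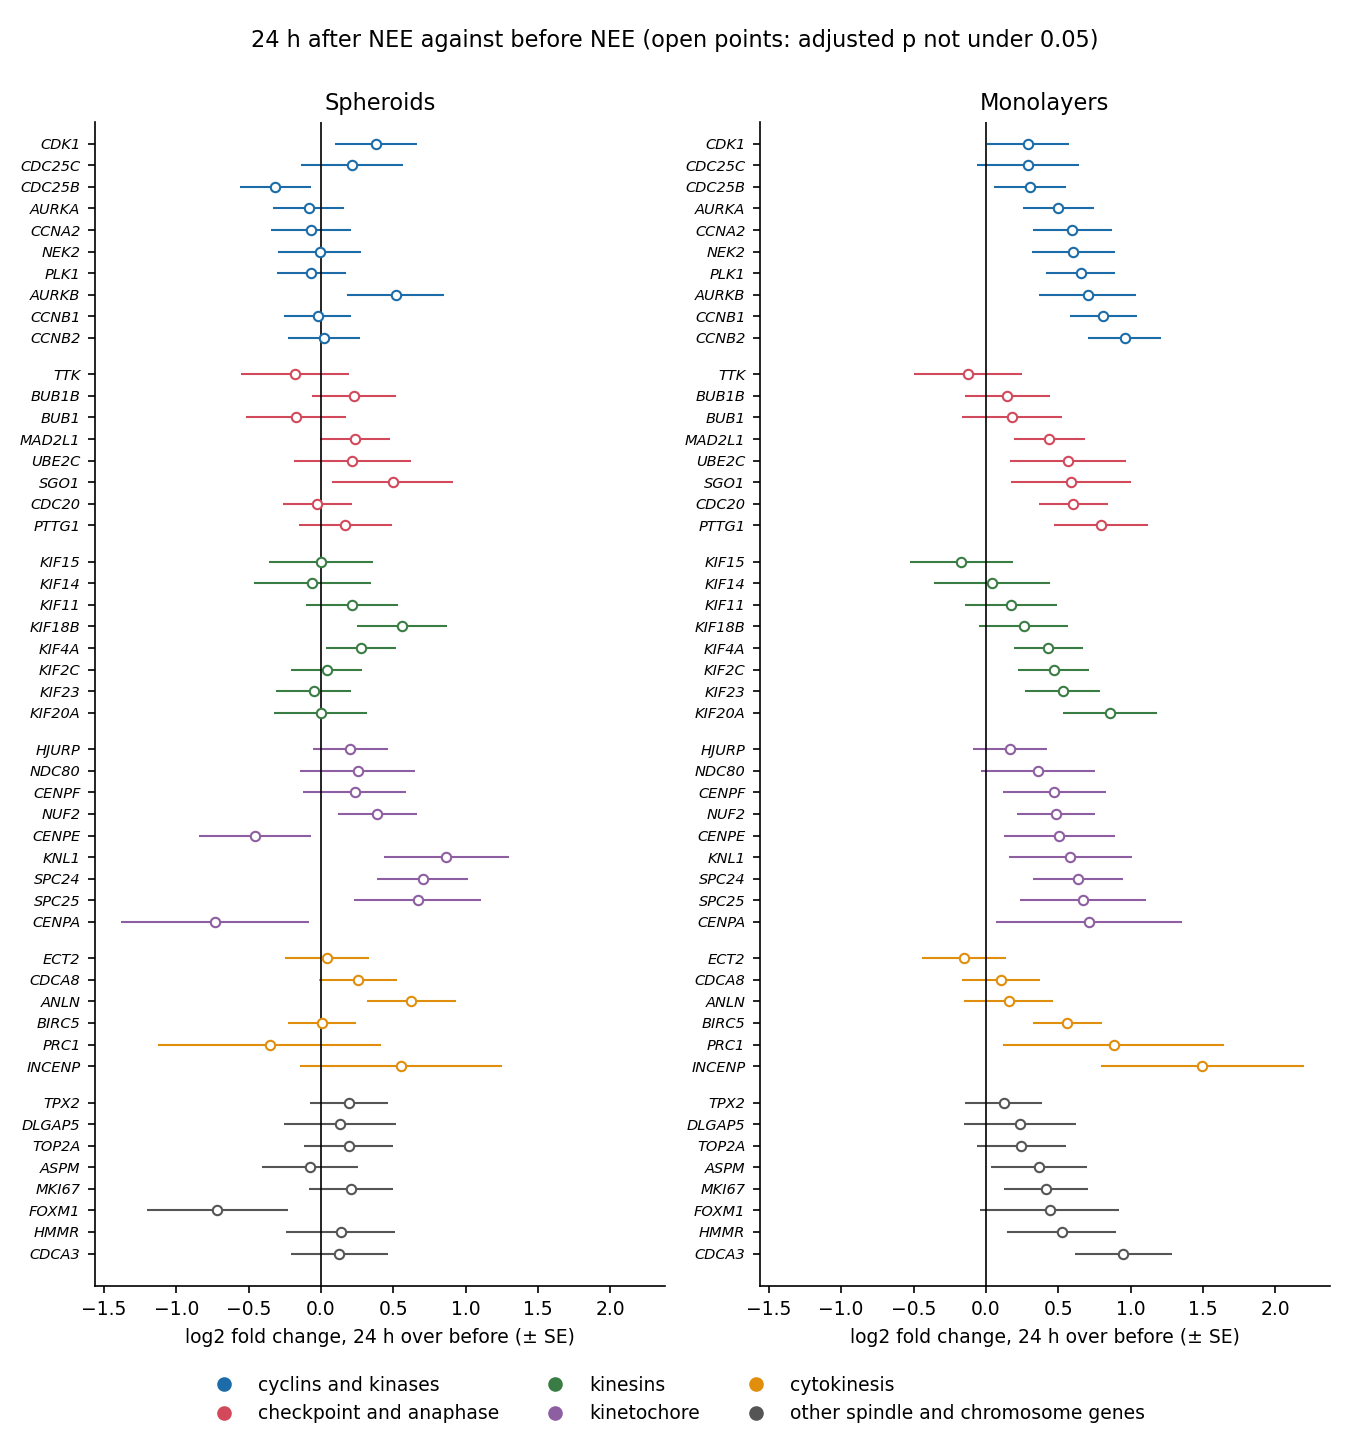
Log2 fold change of 24 h over before NEE (x axis, bars ± SE) for the 49 members tested, in spheroids on the left and monolayers on the right, in the same order of genes and coloured by role. No point is filled, since none passed the test; 31 values are above 0 in spheroids and 46 in monolayers.

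In spheroids the values at 24 h were mostly above those right after NEE and at 2 h, without passing the test. Against the libraries from right after NEE and 2 h together, 43 of 49 values at 24 h were positive with a median of 0.35, and none was called, with 0% of all genes called. At an unadjusted p under 0.05, 7 members were higher, which were MAD2L1, KIF2C, SPC24, SPC25, KNL1, ANLN and CDCA8, against 1.93% of all genes. In 18 members both libraries at 24 h lay above all 4 earlier libraries after NEE, as in 5.96% of all genes. SPC24 had 43.2 and 37.5 CPM in spheroids at 24 h, against 26.2, 22.7, 19.6 and 31.1 CPM right after NEE and at 2 h (log2 fold change 0.69, SE 0.26, edgeR adjusted p = 1). ANLN had 203 and 221 CPM at 24 h, against 155, 122, 131 and 156 CPM (log2 fold change 0.59, SE 0.26, edgeR adjusted p = 1). The same contrast in monolayers had a median of 0.25 with 45 positive values, 1 member higher at an unadjusted p under 0.05, against 1.39% of all genes, and 0% of all genes called. That median was 0.11 without replicate 2 of the monolayers right after NEE and 0.40 without its replicate 1. The median in spheroids was 0.24 without replicate 2 of the spheroids right after NEE, which had the lowest median level of the lysates, and 0.51 without replicate 1 of that group.

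The changes from before NEE to 2 h were set against each other in the cultures by an interaction term. The change in spheroids minus the change in monolayers was negative for 47 of 49 members, with a median log2 value of −0.46, and none was called, with 0% of all genes called. The median was −0.28 without replicate 1 of the spheroids at 2 h and −0.61 without its replicate 2. At an unadjusted p under 0.05, 8 were lower, which were CCNA2, CCNB1, CCNB2, PLK1, NEK2, CDC20, KIF23 and INCENP, against 1.12% of all genes. CCNB2 had 125 and 142 CPM in spheroids at 2 h, against 134 and 194 CPM before NEE. Monolayers had 229 and 193 CPM of CCNB2 at 2 h and 115 and 148 CPM before NEE (interaction −0.98, SE 0.36). At 24 h the interaction had a median of −0.21 with 37 negative values, 2 members lower at an unadjusted p under 0.05, against 1.31% of all genes, and 0% of all genes called. A difference between the cultures in the response to NEE was therefore not shown for any member by this test, and DESeq2 called none either.

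Most pairs of members correlated positively within each culture. Over the 8 monolayer libraries the Pearson correlation of log2 levels was positive in 885 of 1035 pairs of these 46 members, with a median of 0.49. Over the 8 spheroid libraries it was positive in 936 pairs, with a median of 0.48. The share of positive pairs among other genes was not computed, so these counts do not set the members apart. The pairs most alike in both cultures were DLGAP5 with HMMR, at 0.94 in spheroids and 0.91 in monolayers, and CCNA2 with PLK1, at 0.90 and 0.91. TOP2A with DLGAP5 followed, at 0.97 in spheroids and 0.89 in monolayers. Points of such a comparison share a library, its depth and its relation of level with transcript length, so these values are a description. A pooled value over the 16 libraries is not given because the cultures form separate clusters.

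NEE-sampled RNA held a smaller and differently composed share of these genes than monolayer lysates. The members made up 0.379% to 0.450% of its counts. Against monolayers over the 4 times, 30 of 49 members fell and 8 rose, with a median log2 fold change of −1.02, where the median of all genes was −0.20. Of all 17067 genes tested, 26.0% fell and 22.5% rose. All 3 NEE-sampled libraries lay below all 8 monolayer libraries in 28 members, as in 23.2% of all genes, and above them in 7, as in 21.3%. Against monolayers before NEE alone, 24 members fell and 8 rose, where 22.5% of all genes fell and 15.6% rose. Without replicate 1 from before NEE 19 fell and 5 rose, with that arm at 1 library.

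The members that fell included all 8 kinesins, with log2 fold changes of −2.09 to −1.52. TOP2A had 146, 162 and 162 CPM in NEE-sampled RNA, against 803, 1090 and 1464 CPM as the lowest, median and highest of the monolayers (log2 fold change −2.85, SE 0.23, edgeR adjusted p = 2.76e-06). BUB1B, which encodes the checkpoint protein BubR1, had 10.3, 6.4 and 3.46 CPM in NEE-sampled RNA and 83.8 to 137 CPM in monolayers (log2 fold change −4.08, SE 0.38, edgeR adjusted p = 6.65e-06). TPX2 had 87.2, 118 and 82.2 CPM in NEE-sampled RNA, against 337 to 536 CPM in monolayers (log2 fold change −2.22, edgeR adjusted p = 9.01e-06). In all 3 genes the groups were far apart. KIF4A had 24.8, 25.8 and 18.8 CPM in NEE-sampled RNA and 76.0 to 123 CPM in monolayers (log2 fold change −2.09, edgeR adjusted p = 9.46e-06). ANLN had 41.2, 24.0 and 15.9 CPM, against 231 to 443 CPM in monolayers (log2 fold change −3.66, edgeR adjusted p = 9.66e-06).

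The 8 members that rose in NEE-sampled RNA were CDC25B, UBE2C, PTTG1, CENPA, SPC24, BIRC5, FOXM1 and CDCA3. Of all genes tested against monolayers over the 4 times, 22.5% rose, a larger share than these 8 of 49 members. The number of rises therefore does not set the members apart from other genes. PTTG1 had 168, 115 and 162 CPM in NEE-sampled RNA, against 28.6 to 75.1 CPM in monolayers (log2 fold change 1.81, SE 0.20, edgeR adjusted p = 2.14e-05). BIRC5 had 799, 796 and 775 CPM in NEE-sampled RNA and 259 to 503 CPM in monolayers (log2 fold change 1.11, edgeR adjusted p = 0.000135). CDC25B had 498, 420 and 461 CPM in NEE-sampled RNA, against 146 to 237 CPM in monolayers (log2 fold change 1.21, edgeR adjusted p = 8.42e-05). The ranges were separate in all 3. CDK1, PLK1 and CDC20 did not pass the test, although all 3 were called lower with the trend on transcript length removed (log2 fold changes −0.65, −0.47 and −0.77, edgeR adjusted p = 0.00697, 0.0354 and 0.00275). CDK1 had 193, 233 and 192 CPM in NEE-sampled RNA and 187 to 365 CPM in monolayers (log2 fold change −0.43, edgeR adjusted p = 0.0792). CCNB1, the partner cyclin of CDK1, had 206, 247 and 269 CPM in NEE-sampled RNA, against 315 to 656 CPM in monolayers (log2 fold change −1.02, edgeR adjusted p = 0.000496).

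The direction in NEE-sampled RNA went with the length of the transcript. Across the 49 members the Spearman rho of log2 fold change with coding length was −0.79, and across 13440 genes it was −0.42. With the length of the whole transcript, the measure used in the fit below, it was −0.68 and −0.39. A weaker relation was seen for spheroids against monolayers over the 4 times. There the rho with coding length was −0.40 across the 49 members and −0.10 across 13774 genes. With transcript length it was −0.37 and −0.12. These are values across genes, which are not independent replicates. Of the 10 members with a coding length under 1000 bases 6 rose and 1 fell, and of the 13 with at least 3000 bases all 13 fell. Among all genes of these classes, 48.1% rose and 10.6% fell below 1000 bases, and 5.78% rose and 49.4% fell from 3000 bases. CENPA, with 420 coding bases, had the most positive value (log2 fold change 1.87), and KNL1, with 7026, had −3.75. FOXM1, with 2403 coding bases, was the longest member that rose, and ASPM, a spindle pole protein with 10431, fell only by 0.65. With the trend on transcript length removed from each library, 33 members fell and 7 rose, with a median of −0.89. The calls changed for 10 members. CDK1, PLK1, AURKB, CDC20 and SPC25 were then called lower and HMMR and ASPM no longer were, with ASPM at 0.23. MAD2L1 was then called higher (log2 fold change 0.77, edgeR adjusted p = 0.00328), against a log2 fold change of 0.09 and no call in the main fit. The transcript taken for MAD2L1 has 5468 bases, of which 615 are coding. UBE2C (0.36, edgeR adjusted p = 0.161) and CDCA3 (0.40, edgeR adjusted p = 0.118) were no longer called higher. What part transcript length plays in these differences was not tested beyond this fit.

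**Figure D5:**
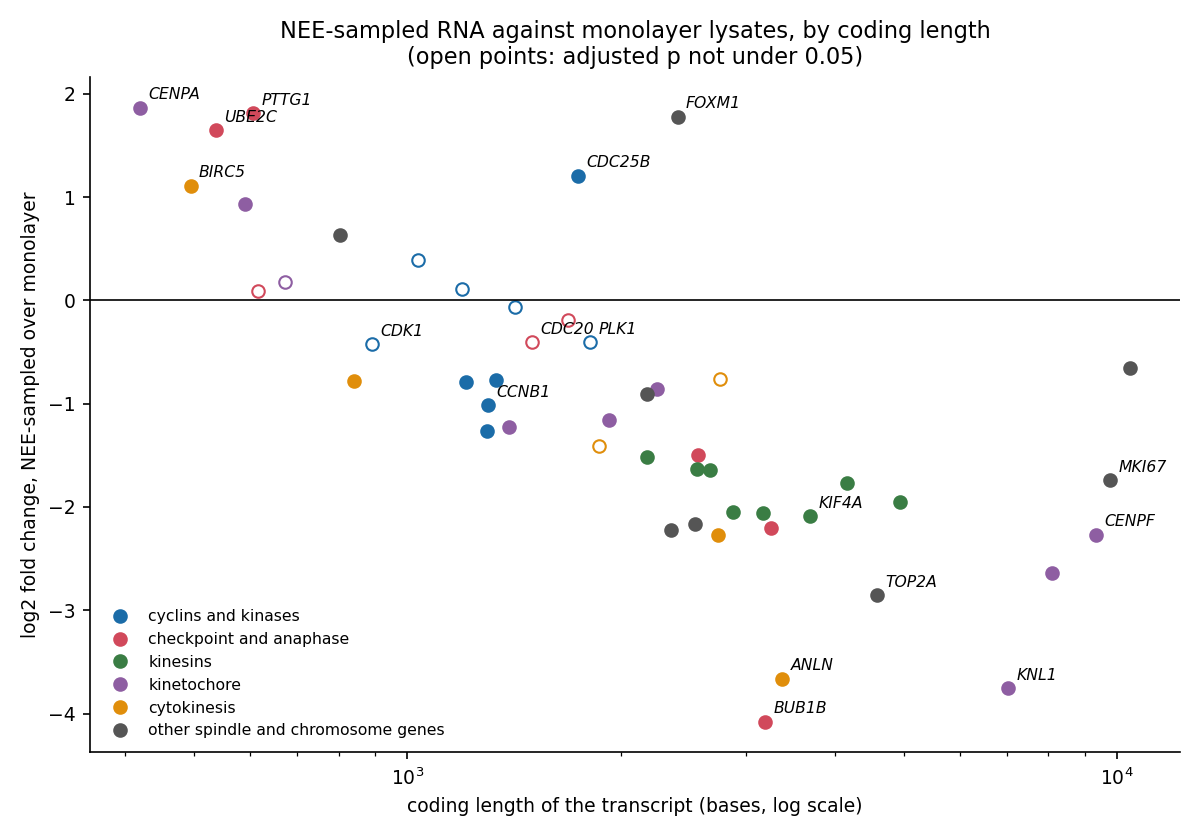
Log2 fold change of NEE-sampled RNA over monolayer lysates (y axis) against the coding length of each of the 49 members tested (x axis, bases, log scale), coloured by role; open points did not pass the test. Members under 1000 bases lie mostly above 0 and all 13 members of 3000 bases or more lie below it.

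A wider list of 70 further G2 and mitosis genes had 68 tested. Of these, 59 fell and 0 rose in spheroids against monolayers over the 4 times, where 9.84% of all genes fell. The median log2 fold change of the 68 was −0.96. The 4 with the smallest p-values were CDCA5, a guard of cohesin, MELK, a mitotic kinase, ZWILCH, a kinetochore protein, and DSN1, a subunit of the MIS12 complex. They fell by 1.37, 1.31, 1.67 and 1.14 on the log2 scale (edgeR adjusted p = 1.15e-05 to 2.36e-05). Before NEE alone, 10 of the 68 fell, where 1.30% of all 17822 genes were called in either direction. The main fit called none of the 49 members there, though other fits called some. Of 38 S phase genes 34 fell and 0 rose over the 4 times, with a median of −1.35, where 9.84% of all genes fell. MCM10 and CDC6, which load and start the replicative helicase, fell by 2.19 and 1.80 on the log2 scale (edgeR adjusted p = 4.86e-07 and 1.06e-06). Both also fell before NEE alone (log2 fold changes −2.27 and −1.84, edgeR adjusted p = 0.00213 and 0.00273). At 24 h in monolayers the S phase list had a median of 0.00 with 18 positive and 20 negative values, the 70 further genes one of 0.18 with 49 positive values, and neither had a called gene. Whether the members differed from these lists was not tested.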

How the data were processed

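The authors deposited 1 table of counts per gene for each library, with Ensembl identifiers. The submitters' processing notes name FastQC, Trimmomatic, HISAT2, featureCounts and GRCh38, while versions and the strand setting are not stated there. The 1 line per table that names no gene was left out. Counts were fitted as deposited with edgeR 4.0.16 in R 4.3.3 (TMM, filterByExpr, robust quasi-likelihood test), with p-values adjusted over all genes. The 16 lysates shared 1 fit of 17822 genes, and NEE-sampled RNA was fitted with the 8 monolayers over 17067 genes. Levels were scaled over all 19 libraries. The members and lists were chosen with earlier results of these data known.

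Values per library are given for the members with the smallest p-values of each role and those farthest from the median of their role, for up to 4 called members per comparison, and for CCNB1, CDK1, PLK1, CDC20, TOP2A and MKI67. Members named outside this rule, such as UBE2C, FOXM1, KNL1, CENPE, NEK2, AURKB, BUB1, SGO1, KIF2C, CDC25C, PRC1 and ASPM, were chosen after their values were seen. Likeness between members was taken within each culture and not over the 16 lysates together, a change made after the data were seen. Transcript and coding lengths came from GENCODE 29 and promoter windows from RefSeq. The labels give replicate numbers as a batch. Over all genes, deviations of same-numbered libraries correlated at −0.18 to 0.37 over 28 pairs of groups, with a median of 0.15 and 17 above 0.1. Over the members alone the range was wider, at −0.42 to 0.52. Across the 8 lysate groups the 10 epithelial and A549 markers summed to 14213 to 31531 CPM in replicate 1. In replicate 2 they summed to 37745 to 47579 CPM, so same-numbered libraries shared a difference. The main fits hold no term for it, and a replicate block was fitted as an alternative. The test was run on simulated data. That outcome is not given here, so the power for small changes is not stated. Alternatives were DESeq2 1.42.0, other scalings, filters, a replicate block, 1 fit of all libraries and leaving out each library. Removing the trend on transcript length was added after the data were seen.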

Additional observations from a re-analysis of the deposited data

How the results depend on the processing

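The contrast of spheroids with monolayers over the 4 times called 38 to 43 members lower when a library was left out, 44 with DESeq2 and 43 with a replicate block. NUSAP1, PRC1, CENPA and INCENP had few counts, which limits their precision. Before NEE alone, where edgeR called 0 members, the counts were 12 with DESeq2, 6 with no filter on low counts, 3 with the stricter filter, 3 with a replicate block, 2 with the length trend removed and 7 with the length trend removed and a replicate block. They ran from 0 to 10 when a library was left out, which leaves 1 arm with a single library and takes the spread from the other groups. The median of monolayers right after NEE ran from −0.19 to 0.30 when a library was left out, that of spheroids right after NEE from −0.32 to 0.10, and the interaction at 24 h from −0.42 to −0.12. The median of NEE-sampled RNA against monolayers over the 4 times was −0.81 with the stricter filter, and the members' sum in NEE-sampled RNA was 4120 CPM without TMM scaling, against 4969 CPM with it. At 24 h in monolayers, the replicate block gave a median of 0.49 and 0 called members. Among the members with values per library, signs turned for 5, and among all 49 the number of positive values at 24 h in monolayers ran from 37 to 49 when a library was left out. At 24 h in monolayers, leaving out a library moved KIF15 between −0.41 and 0.10, TTK between −0.53 and 0.44 and TOP2A between −0.039 and 0.58. KIF15 turned positive without replicate 1 from before NEE or from 24 h, TTK without replicate 1 from before NEE, and TOP2A turned negative without replicate 2 from before NEE or from 24 h. In spheroids against monolayers CDC25B ran from −0.028 to 0.10 and was negative without replicate 1 of the monolayers before NEE, replicate 2 of the monolayers at 24 h, replicate 1 of the spheroids right after NEE or replicate 1 of the spheroids at 24 h. CENPA ran from −0.42 to 0.042 and was positive without replicate 1 of the monolayers right after NEE. The causes were not tested.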

Other observations

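A list of 12 genes of cell cycle arrest and G1 control, which also holds the G1 cyclins CCND1 and CCND3, had members called in both directions. Of the 12 genes 10 were tested, and 3 rose and 3 fell in spheroids against monolayers over the 4 times, with a median log2 fold change of 0.07, where 9.84% of all genes fell and 19.9% were called in either direction. Whether the list differs from the G2 and mitosis genes was not tested. CDKN2C, an inhibitor of the G1 kinases CDK4 and CDK6, rose (log2 fold change 1.51, edgeR adjusted p = 0.00125). CDKN1B, which encodes the inhibitor p27, rose (log2 fold change 0.77, edgeR adjusted p = 0.0105), and CCNG2, which encodes cyclin G2, rose (log2 fold change 1.75, edgeR adjusted p = 0.0219). CCND1, which encodes cyclin D1, a driver of G1, fell by 1.15 on the log2 scale (edgeR adjusted p = 0.00161). CDKN1A, which encodes the inhibitor p21, and BTG2, an antiproliferative gene, fell by 0.86 and 0.82 (edgeR adjusted p = 0.0264 and 0.0455).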
